A study of Danio rerio with 12 samples.

Results

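The genes described here are 10 markers of macrophages, neutrophils and other leukocytes in the zebrafish ovary: cd74a, cd74b, coro1a, mpeg1.1, csf1ra, marco, lyz, mpx, spi1b and ptprc. They were chosen by name, with earlier results of these data known, and all 10 were among the 26171 named genes of the deposited table. All 10 also passed the filter on low counts that left 21407 genes for testing. Ovaries were compared between wild-type fish of the AB strain and adamts9 mutant fish at 47 and 61 days post fertilization (dpf), with 3 libraries for each genotype and age and 12 in all. adamts9 encodes a secreted metalloprotease. The labels do not give the mutant allele, its zygosity or the strain background of the mutant, and the ages used here are those of the samples, since the text on the series states different ones. The labels also do not say whether the replicates were separate fish or pools, so every p-value measures only the spread between these libraries, which may be technical. All groups were ovary tissue homogenized whole, with polyA RNA as the measured molecule and no sorting of cells.

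Macrophages and neutrophils are the phagocytes of the myeloid lineage. Resident macrophages of the ovary clear dying follicle cells and oocytes and present peptides on MHC class II molecules, while neutrophils carry granules with antimicrobial enzymes and enter tissue on injury or infection. In zebrafish, mpeg1.1 and csf1ra are in common use as macrophage markers and mpx and lyz as neutrophil markers, while coro1a and ptprc mark leukocytes in general. csf1ra is also used by yellow pigment cells of the skin, and cd74 genes are also expressed by B cells and dendritic cells.

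Library totals ran from 16456718 to 38754919 counts. The tissue label was checked on 17 genes of oocytes and ovarian somatic cells, none of which was at 0 in any library and whose summed level was 3890 to 6280 CPM (counts relative to the total of the library) in every library. The transcript of the targeted gene, adamts9, did not separate the genotypes: it was 13.7 to 18.9 CPM in wild type against 13.1 to 15.2 CPM in the mutant at 47 dpf, and 9.98 to 15.9 against 12.9 to 16.1 CPM at 61 dpf. Its level therefore does not check the genotype labels. Levels below are CPM scaled by the trimmed mean of M values. CPM is not corrected for transcript length, so levels are compared between libraries and not between genes.

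Of the 10 genes, 3 were called higher in the mutant at 61 dpf, beside 1.22% of all genes tested. They were both genes of the MHC class II invariant chain, cd74a and cd74b, and coro1a, an actin-binding protein of leukocytes. Their log2 differences were 1.39 to 1.59, and the lowest mutant library lay above the highest wild-type library for each of them at both ages. All 3 calls ended when any single library at 61 dpf other than replicate 2 of the wild type was left out. At 47 dpf none of the 10 genes passed the test, although 6 had mutant libraries that were all above the wild-type ones, beside 8.01% of all genes. For the macrophage genes mpeg1.1, csf1ra and marco, all wild-type libraries at 61 dpf were above those at 47 dpf without passing the test, and the genotypes overlapped at the later age. The neutrophil genes lyz and mpx gave no call, and neither had a mutant mean above the wild-type mean at either age, which for mpx at 61 dpf rested on 1 wild-type library. At 47 dpf the sign of both turned in some fits that left out 1 library. These 2 genes do not stand for the other neutrophil and phagocyte oxidase genes. Of the 23 tested, 19 were positive at 47 dpf and 16 at 61 dpf, beside 52.7% and 50.4% of all genes.

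**Figure D1:**
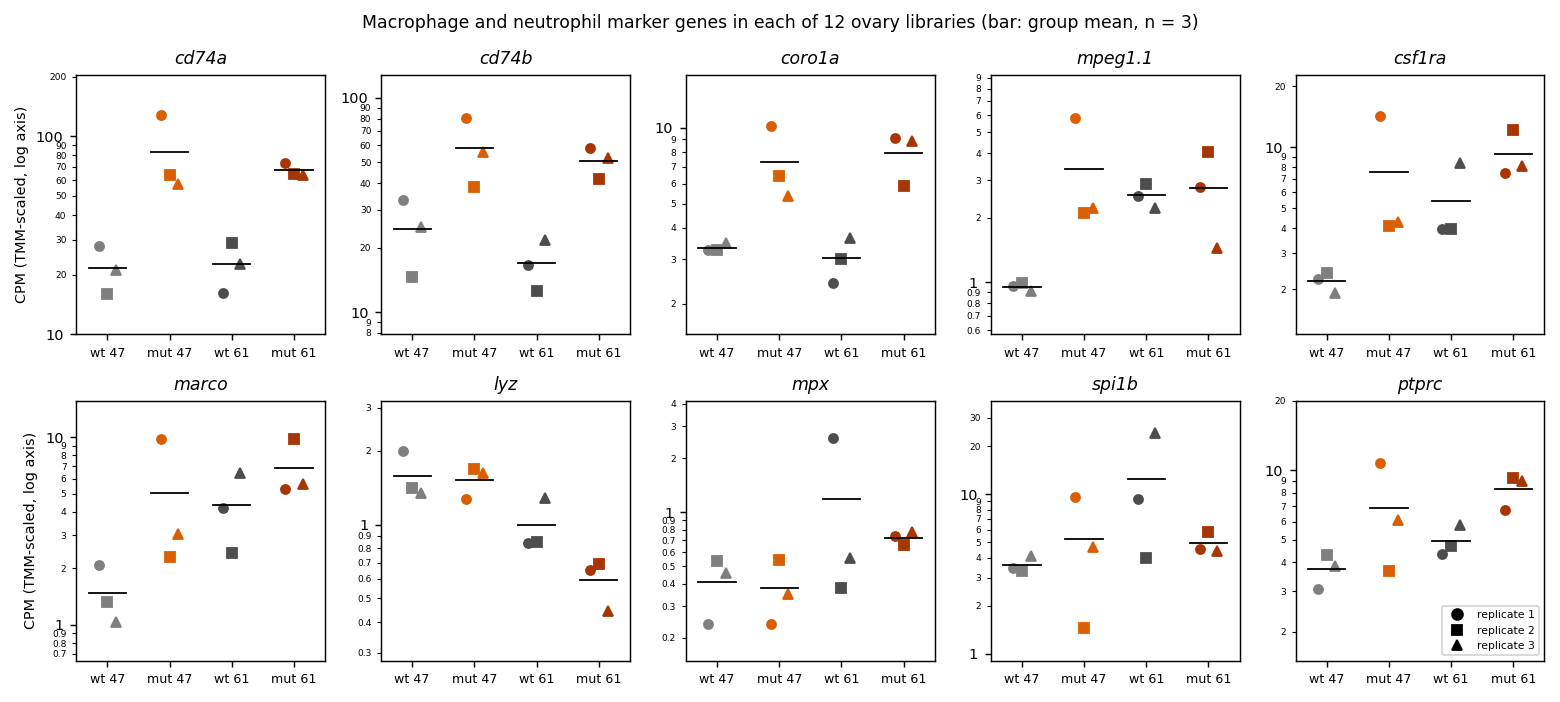
Level of each of the 10 marker genes in every library, in CPM on a log axis, by genotype and age (wt, wild type; mut, mutant; 47 and 61, dpf), with a marker shape for each replicate and a bar at the group mean (n = 3). cd74a, cd74b and coro1a separate by genotype at both ages, while mpeg1.1, csf1ra and marco separate at 47 dpf only.

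cd74a encodes an invariant chain, the chaperone that holds MHC class II molecules until they reach the compartment where peptide is loaded. At 47 dpf its level was 28.1, 16 and 21.1 CPM in the wild-type libraries and 128, 63.6 and 57.5 CPM in the mutant ones. At 61 dpf it was 16.2, 29.0 and 22.6 CPM in wild type against 73.3, 64.6 and 63.7 CPM in the mutant. All 6 mutant libraries were above all 6 wild-type libraries, and the highest was replicate 1 of the mutant at 47 dpf. The means were 21.7 ± 6.04 and 83.1 ± 39.3 CPM (SD, n = 3) at 47 dpf and 22.6 ± 6.41 and 67.2 ± 5.28 CPM at 61 dpf. The log2 difference at 61 dpf was 1.57 ± 0.33 (SE), with an adjusted p of 0.0389 in edgeR's quasi-likelihood test with Benjamini-Hochberg adjustment over all genes tested. At 47 dpf the log2 difference was 1.94 ± 0.33, and its adjusted p of 0.0672 did not pass the threshold of 0.05.

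cd74b, the second invariant chain gene, had 33.5, 14.6 and 25.0 CPM in the wild type and 80.2, 38.2 and 55.7 CPM in the mutant at 47 dpf. The later age gave 16.6, 12.6 and 21.8 CPM in wild type against 58.6, 41.8 and 52.5 CPM in the mutant. The genotypes did not overlap at either age, and the libraries closest to each other were wild-type replicate 1 and mutant replicate 2 at 47 dpf. The log2 difference was 1.59 ± 0.34 at 61 dpf (adjusted p 0.0429, edgeR) and 1.25 ± 0.34 at 47 dpf (adjusted p 0.317). coro1a had 3.28, 3.27 and 3.47 CPM in wild type against 10.2, 6.45 and 5.37 CPM in mutant at 47 dpf, and 2.41, 3.02 and 3.65 against 9.09, 5.89 and 8.84 CPM at 61 dpf. Wild-type libraries of both ages lay within a narrow band below every mutant library. Its log2 difference was 1.39 ± 0.29 at 61 dpf (adjusted p 0.0394, edgeR) and 1.14 ± 0.29 at 47 dpf (adjusted p 0.27).

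The 3 calls at 61 dpf are read against the 1.22% of all genes tested that were called higher there, and the 1.82% called in either direction. By unadjusted p under 0.05, 4 of the 10 passed, beside 25.3% of all genes. The mutant libraries were all above the wild-type ones for 4 of the 10, beside 15.6% of all genes, and all below for 1, beside 12.3%. The median log2 difference of the 10 genes was 0.71, beside 0.01 for all genes tested, and 7 of the 10 were positive. Without replicate 2 of the mutant at 61 dpf it was 0.41, with 6 positive. The calls were close to the threshold: leaving out any library of the mutant at 61 dpf, or replicate 1 or replicate 3 of the wild type at 61 dpf, ended all 3, with adjusted p of up to 0.125 for cd74a, 0.135 for cd74b and 0.142 for coro1a, while the log2 differences stayed between 1.27 and 1.80. A fit to the 6 libraries of that age alone also ended them, with adjusted p of 0.0671, 0.08 and 0.113. In these bulk samples, a different number of expressing cells and a different amount of RNA in each cell cannot be told apart.

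**Figure D2:**
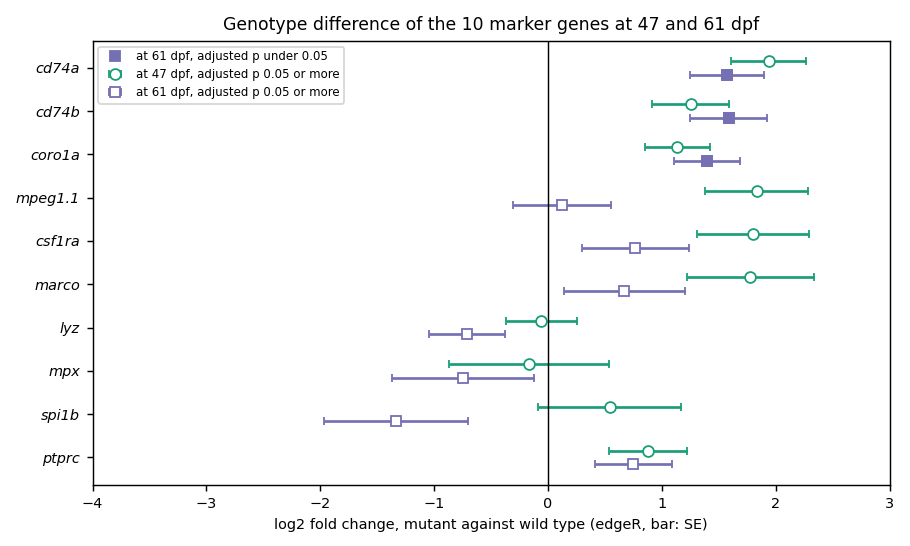
Log2 fold change of mutant against wild type for each of the 10 genes at 47 dpf (circles) and 61 dpf (squares), with the SE as a bar and filled markers where the adjusted p was under 0.05. Only cd74a, cd74b and coro1a at 61 dpf have filled markers. The values of all genes except cd74b and coro1a lie further left at 61 than at 47 dpf, and none of these differences between ages was called.

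mpeg1.1 encodes perforin-2, a pore-forming protein of macrophages that acts on engulfed bacteria. Its level at 47 dpf was 0.961, 0.99 and 0.916 CPM in wild type against 5.81, 2.11 and 2.23 CPM in the mutant. In the older ovaries it was 2.54, 2.88 and 2.23 CPM in wild type against 2.77, 4.07 and 1.45 CPM in the mutant. The wild-type libraries at 47 dpf were the 3 lowest of the 12, and at 61 dpf the mutant libraries lay on both sides of the wild-type ones. The log2 difference between genotypes was 1.83 ± 0.45 at 47 dpf (adjusted p 0.258, edgeR) and 0.13 ± 0.43 at 61 dpf (adjusted p 0.887). The difference between these, -1.71 ± 0.62, had the smallest p of the 10 genes in that comparison (0.0178) and an adjusted p of 0.519.

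csf1ra encodes a receptor for colony-stimulating factor 1, the growth factor on which macrophages depend. It had 2.24, 2.40 and 1.91 CPM in wild type against 14.3, 4.10 and 4.28 CPM in the mutant at 47 dpf. At 61 dpf it had 3.97, 3.97 and 8.42 CPM in wild type against 7.50, 12.2 and 8.07 CPM in the mutant. Replicate 1 of the mutant at 47 dpf was the highest library, and replicate 3 of the wild type at 61 dpf reached into the range of the mutant. The log2 difference was 1.80 ± 0.49 at 47 dpf (adjusted p 0.333) and 0.77 ± 0.47 at 61 dpf (adjusted p 0.327), where it ran from 0.51 without replicate 2 of the mutant to 1.22 without replicate 3 of the wild type.

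marco encodes a scavenger receptor with which macrophages bind bacteria and particles. Its level was 2.08, 1.33 and 1.03 CPM in wild type against 9.74, 2.29 and 3.06 CPM in the mutant at 47 dpf. By 61 dpf it was 4.19, 2.41 and 6.40 CPM in wild type against 5.26, 9.74 and 5.62 CPM in the mutant. As for csf1ra, the highest libraries were replicate 1 of the mutant at 47 dpf, replicate 3 of the wild type and replicate 2 of the mutant at 61 dpf, each within its group. The log2 difference was 1.77 ± 0.56 at 47 dpf (adjusted p 0.436) and 0.67 ± 0.53 at 61 dpf (adjusted p 0.458). The value at 61 dpf ran from 0.32 without replicate 2 of the mutant to 1.05 without replicate 3 of the wild type.

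ptprc encodes CD45, the tyrosine phosphatase on the surface of leukocytes. It had 3.08, 4.30 and 3.85 CPM in wild type against 10.8, 3.68 and 6.11 CPM in the mutant at 47 dpf, and 4.35, 4.72 and 5.80 against 6.77, 9.23 and 8.96 CPM at 61 dpf. The genotypes overlapped at 47 dpf through replicate 2 of the mutant and did not overlap at 61 dpf. Its log2 difference was 0.88 ± 0.34 at 47 dpf (adjusted p 0.582) and 0.75 ± 0.34 at 61 dpf (adjusted p 0.191). spi1b encodes Pu.1, a transcription factor needed for myeloid development. It had 3.44, 3.31 and 4.12 CPM in wild type against 9.54, 1.45 and 4.67 CPM in the mutant at 47 dpf, and 9.35, 3.97 and 24.0 against 4.53, 5.82 and 4.39 CPM at 61 dpf. The mutant at 47 dpf held both the lowest library of all and a high one, and the highest library of all was replicate 3 of the wild type at 61 dpf. The log2 difference was 0.54 ± 0.63 at 47 dpf (adjusted p 0.983) and -1.34 ± 0.63 at 61 dpf (adjusted p 0.208), and without that wild-type library the latter was -0.45.

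The 2 neutrophil markers were at low counts. lyz encodes lysozyme, an enzyme that cuts bacterial cell walls, and had 2, 1.41 and 1.34 CPM in wild type against 1.27, 1.69 and 1.62 CPM in the mutant at 47 dpf. At 61 dpf it had 0.838, 0.85 and 1.29 CPM in wild type against 0.652, 0.691 and 0.445 CPM in the mutant. The genotypes overlapped at 47 dpf, and at 61 dpf all mutant libraries were below all wild-type ones. The log2 difference was -0.06 ± 0.32 at 47 dpf (adjusted p 0.998) and -0.71 ± 0.34 at 61 dpf (adjusted p 0.206). mpx encodes myeloperoxidase, the granule enzyme that makes hypochlorous acid, and had 0.24, 0.533 and 0.458 CPM in wild type against 0.239, 0.543 and 0.349 CPM in the mutant at 47 dpf. Its values at 61 dpf were 2.60, 0.378 and 0.558 CPM in wild type against 0.734, 0.654 and 0.779 CPM in the mutant. Of the 12 libraries, 11 held 6 to 18 counts of mpx, and replicate 1 of the wild type at 61 dpf held 96. The log2 difference at 61 dpf was -0.74 ± 0.62 (adjusted p 0.481), and without that library it was 0.63; at 47 dpf it was -0.17 ± 0.70 (adjusted p 0.998). For scale, 3 counts in a library, the limit that a count of 0 allows, were 0.0811 to 0.181 CPM, which covers counting error only.

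At 47 dpf none of the 10 genes was called by edgeR, beside 0.0888% of all genes. By unadjusted p under 0.05, 7 of the 10 passed, beside 6.92% of all genes. DESeq2 called 3, which were cd74a, mpeg1.1 and csf1ra, beside 171 of 25851 genes. For 6 of the 10 all mutant libraries were above all wild-type ones, beside 8.01% of all genes, and for none were they all below, beside 4.60%. The 6 genes were cd74a, cd74b, coro1a, mpeg1.1, csf1ra and marco. The median log2 difference was 1.19, beside 0.02 for all genes, and 8 of the 10 were positive. Replicate 1 of the mutant was the highest of its group for all of the 8 genes other than lyz and mpx. Without it the median was 0.83, with cd74a at 1.48, cd74b at 0.94, coro1a at 0.82, mpeg1.1 at 1.18, csf1ra at 0.94, marco at 0.85, ptprc at 0.39 and spi1b at -0.23.

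**Figure D3:**
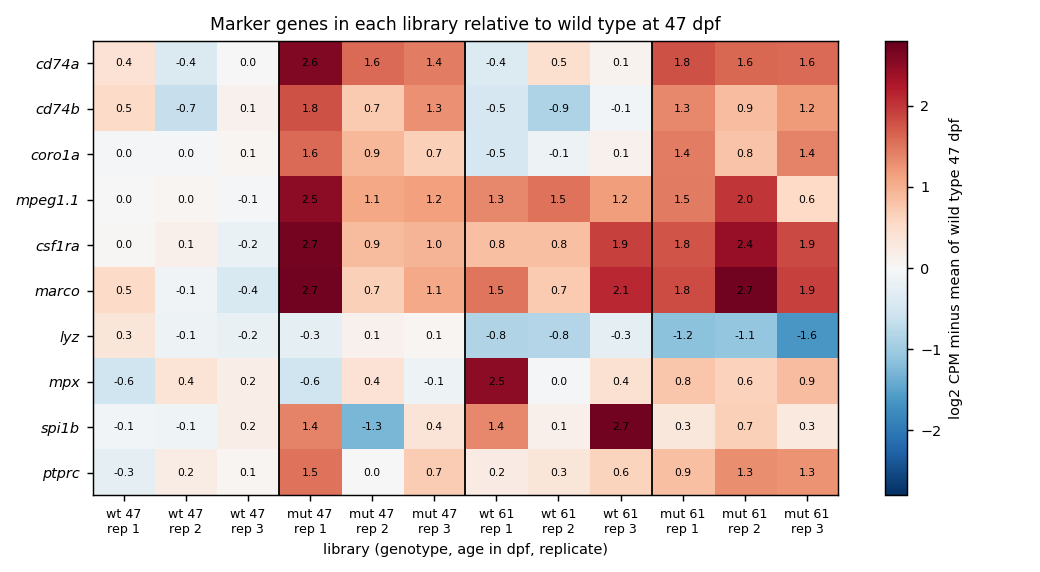
Log2 CPM of each gene in each library minus the mean log2 CPM of the wild type at 47 dpf, with the value printed in each cell and vertical lines between the 4 groups. Replicate 1 of the mutant at 47 dpf has the highest value of cd74a, cd74b, coro1a, mpeg1.1, csf1ra and ptprc, and lyz runs to negative values at 61 dpf in both genotypes.

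By library, 8, 7 and 8 of the 10 genes in the mutant libraries at 47 dpf, and 9 of 10 in each mutant library at 61 dpf, were above every wild-type library at 47 dpf. In the wild type at 61 dpf the number was 6, 5 and 7. The share of all genes above every wild-type library at 47 dpf was not computed, so these numbers only describe the libraries. The median log2 level of the 10 genes relative to the mean of the wild type at 47 dpf was 1.69, 0.69 and 0.83 in the mutant at 47 dpf, 0.54, 0.24 and 0.53 in the wild type at 61 dpf, and 1.38, 1.08 and 1.22 in the mutant at 61 dpf. The median SD of log2 CPM between replicates was 0.70 for the 10 genes in the mutant at 47 dpf, beside 0.30 for all genes, and in the other 3 groups it was 0.27 to 0.41 beside 0.23 to 0.44. The markers were more uneven between replicates in the mutant at 47 dpf than genes in general there.

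**Figure D4:**
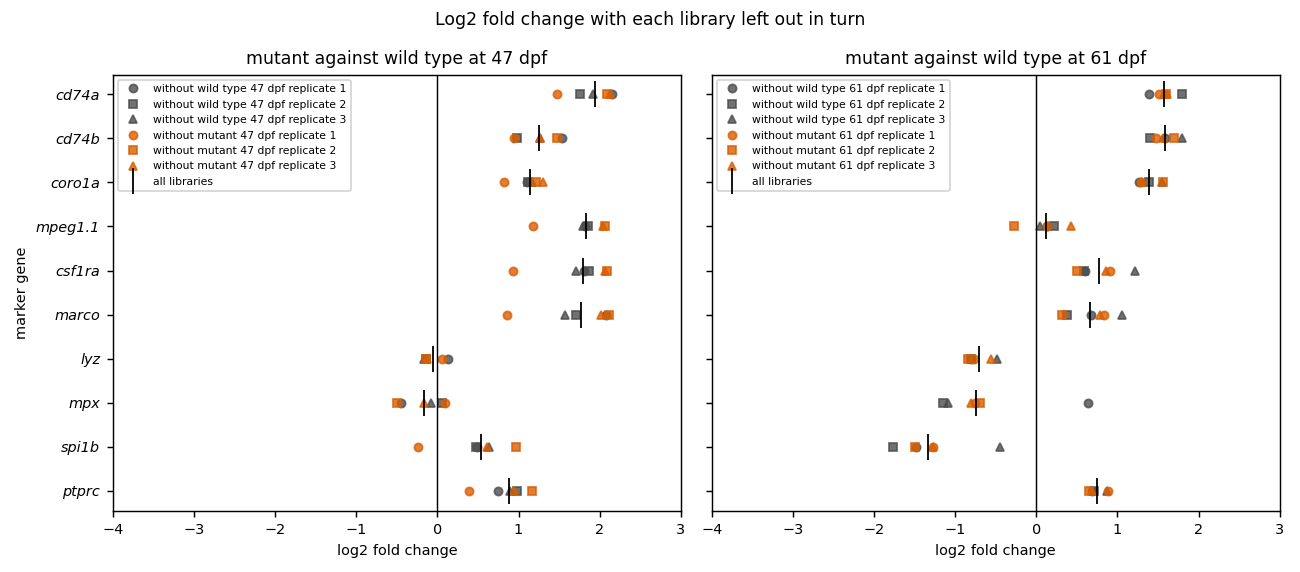
Log2 fold change of mutant against wild type for each gene in the fit to all 12 libraries and in each fit that left out 1 library of the 2 groups compared, at 47 and 61 dpf. The values of cd74a, cd74b and coro1a stay above 0 in all of these fits, and those of mpx and mpeg1.1 at 61 dpf and of lyz, mpx and spi1b at 47 dpf fall on both sides of 0.

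The change with age was read within each genotype, and these comparisons share their libraries with those between genotypes. In the wild type none of the 10 genes was called by edgeR between 61 and 47 dpf, beside 1.52% of all genes, while 5 had an unadjusted p under 0.05, beside 21.6%. These were mpeg1.1, csf1ra, marco, mpx and spi1b. DESeq2 called mpeg1.1 and spi1b, beside 1670 of 25851 genes. Libraries at 61 dpf were all above those at 47 dpf for mpeg1.1, csf1ra, marco and ptprc, 4 of the 10 beside 11.2% of all genes, and all below for lyz, 1 of the 10 beside 11.5%. The log2 values were 1.41 ± 0.45 for mpeg1.1 (adjusted p 0.111), 1.32 ± 0.49 for csf1ra (adjusted p 0.153), 1.55 ± 0.56 for marco (adjusted p 0.144) and -0.67 ± 0.32 for lyz (adjusted p 0.244). spi1b had 1.78 ± 0.64 (adjusted p 0.145) and mpx 1.55 ± 0.65 (adjusted p 0.196), and both overlapped between the ages. With 1 library left out these fell as low as 0.88 and 0.15. cd74a, cd74b and coro1a had values of 0.06 (adjusted p 0.934), -0.52 (adjusted p 0.384) and -0.15 (adjusted p 0.8). The median of the 10 genes was 0.86, beside 0.02 for all genes; it was 0.33 without replicate 1 and 0.56 without replicate 3 of the wild type at 61 dpf.

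In the mutant none of the 10 was called between the ages, beside 0% of all genes, and 1, lyz, had an unadjusted p under 0.05, beside 3.83%. DESeq2 called none of the 10, beside 23 of 25851 genes. The libraries at 61 dpf were all above those at 47 dpf for mpx, 1 of the 10 beside 5.52% of all genes, and all below for lyz, 1 of the 10 beside 6.04%. lyz had a log2 value of -1.33 ± 0.33 and mpx of 0.97 ± 0.68, both with an adjusted p of 1. The other 8 genes lay between -0.31 and 0.44. Without replicate 1 of the mutant at 47 dpf, 9 of the 10 were positive and their median was 0.55 in place of 0.01. The test of whether the genotype difference itself differed between the ages called none of the 10, beside 0% of all genes by edgeR. At an unadjusted p under 0.05 there was 1, mpeg1.1, beside 8.46%. DESeq2 also called none of the 10, beside 102 of 25851 genes. Of the 10 values 2 were positive, and their median was -0.62, beside -0.04 for all genes. Without replicate 1 of the mutant at 47 dpf 4 were positive and the median was -0.18.

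Copies of the members in the zebrafish genome were measured separately. mpeg1.2, a second perforin-2 gene, had 1.4, 1.6 and 1.6 CPM in wild type against 8.51, 1.57 and 2.49 CPM in the mutant at 47 dpf, and 2.24, 2.08 and 2.19 against 3.71, 6.73 and 4.73 CPM at 61 dpf. Unlike mpeg1.1, it had no overlap between genotypes at 61 dpf, with a log2 difference of 1.22 ± 0.50 (adjusted p 0.158), and the difference between the 2 genes was not tested. csf1rb, the second receptor gene, had a log2 difference of 1.14 at 61 dpf (adjusted p 0.211) and spi1a, the second Pu.1 gene, one of 1.03 ± 0.29 (adjusted p 0.075). spi1a had 2.68, 4.25 and 3.78 CPM in wild type against 6.32, 7.09 and 8.34 CPM in the mutant at 61 dpf, without overlap, whereas its log2 difference at 47 dpf was 0.03 (adjusted p 0.998). No member had the same 12 values as another gene. The estimated counts were not whole in any library for coro1a, lyz and spi1b, in 83.3% of libraries for csf1ra and in 41.7% for mpeg1.1. Estimated counts take such values where reads match more than 1 transcript, and levels of genes with close copies are uncertain where reads were shared.

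Among other genes of the macrophage lineage, 36 of the 39 in the table could be tested. At 47 dpf edgeR called none, and 32 were positive, with a median log2 difference of 1.34. The mean log2 CPM of the 39 genes was 2.385, 1.124 and 1.516 in the mutant libraries of that age. In the wild-type ones it was 0.927, 0.564 and 0.549, so replicate 1 of the mutant stood apart here as well. An unadjusted p under 0.05 was found for 22, beside 6.92% of all genes, and DESeq2 called 8, beside 171 of 25851 genes. At 61 dpf 2 rose in the mutant, beside 1.22% of all genes, none fell and 31 were positive, with a median of 0.66. There 11 had an unadjusted p under 0.05, beside the 25.3% of all genes given above, and DESeq2 called 5, beside 2419 of 25851 genes. ccl34b.1, a chemokine gene, rose by 2.37 ± 0.42 on the log2 scale (adjusted p 0.0304), from 0.332 ± 0.115 CPM in wild type to 1.78 ± 0.442 CPM (SD, n = 3). mrc1a, a mannose receptor gene that is also active in lymphatic endothelium of zebrafish, rose by 1.55 ± 0.31 (adjusted p 0.0375), from 0.727 ± 0.112 to 2.16 ± 0.572 CPM. Both calls ended without any one of the mutant libraries at 61 dpf and without replicate 3 of the wild type at 61 dpf, with adjusted p of up to 0.0869 for ccl34b.1 and 0.134 for mrc1a. The smallest p-values at 47 dpf belonged to csf1a and lgals3bpb.

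csf1a encodes a colony-stimulating factor 1, a ligand of the csf1ra receptor. It had 0.68, 0.305 and 0.649 CPM in wild type against 8.72, 8.74 and 4.15 CPM in the mutant at 47 dpf, and 1.14, 0.992 and 1.16 against 0.816, 5.2 and 5.01 CPM at 61 dpf. The genotypes did not overlap at 47 dpf, and at 61 dpf replicate 1 of the mutant was below every wild-type library. Its log2 difference was 3.71 ± 0.62 at 47 dpf (adjusted p 0.0625, edgeR) and 1.74 ± 0.57 at 61 dpf (adjusted p 0.0991). lgals3bpb, a galectin-3-binding protein gene, had 1.72, 1.83 and 0.84 CPM against 64.5, 3.26 and 7.95 CPM at 47 dpf, a log2 difference of 4.11 ± 0.90 (adjusted p 0.179) in which replicate 1 of the mutant stood far above the other two and without which it was 1.94.

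The MHC class II chains, the partners of the cd74 proteins, gave no call. mhc2a, an alpha chain, had 14.5, 14.7 and 11.3 CPM in wild type against 64.0, 11.9 and 25.5 CPM in the mutant at 47 dpf, and 10.7, 15.9 and 13.3 against 38.3, 37.7 and 42.4 CPM at 61 dpf. The mutant libraries at 61 dpf were close to each other and above the wild type, whereas at 47 dpf replicate 2 of the mutant lay within the wild-type range. The log2 difference of mhc2a was 1.57 ± 0.45 at 61 dpf (adjusted p 0.075) and 1.33 at 47 dpf (adjusted p 0.48), where it was 0.47 without replicate 1 of the mutant. mhc2dab, a beta chain, had a log2 difference of 2.06 ± 0.74 at 61 dpf (adjusted p 0.117), with 4.89 ± 1.09 CPM in wild type against 20.3 ± 1.36 CPM in the mutant, and mhc2b one of 0.59 (adjusted p 0.134). At 47 dpf mhc2dab had 4.52, 6.28 and 4.5 CPM in wild type against 30.9, 1.09 and 9.82 CPM in the mutant. Replicate 2 of the mutant was thus below every wild-type library. Its log2 difference there was 1.46, and as low as 0.11 with a single library left out, and that of mhc2b was 0.19. Of the 18 genes of antigen presentation tested, 12 were positive at each age, with a median of 0.47 at 47 and 0.23 at 61 dpf. None was called by edgeR at 47 dpf, and DESeq2 called 1, beside 171 of 25851 genes. The smallest p there were those of b2m and mhc1uba. There 7 had an unadjusted p under 0.05, beside 6.92% of all genes. At 61 dpf 1 rose, beside 1.22% of all genes: the MHC class I gene mhc1uba, by 1.81 ± 0.37 (adjusted p 0.0385). That call ended without the same 4 libraries as those of ccl34b.1, with adjusted p of up to 0.114. At 61 dpf 7 of the 18 had an unadjusted p under 0.05, beside 25.3% of all genes, and DESeq2 called 4, beside 2419 of 25851 genes.

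Of the other neutrophil and phagocyte oxidase genes, 23 of 28 could be tested. The median log2 difference was 0.33 at 47 dpf, with 19 positive and none called by edgeR or DESeq2. There 5 had an unadjusted p under 0.05, beside 6.92% of all genes. At 61 dpf the median was 0.43, with 16 positive. The 6 at an unadjusted p under 0.05 were a share near the 25.3% of all genes. At that age edgeR, which called 1.22% of all genes higher, called 1, mmp9. DESeq2 also called only mmp9, beside 2419 of 25851 genes. This gelatinase gene, also active outside neutrophils, rose by 1.31 ± 0.27 (adjusted p 0.0391), from 3.99 ± 0.354 CPM in wild type to 9.93 ± 0.873 CPM. Its call remained without replicate 2 of the wild type at 61 dpf and ended without each of the other 5 libraries of that age, with adjusted p of up to 0.125. The smallest p-values at 47 dpf were those of cyba, a subunit of the phagocyte oxidase, and of mmp9, with log2 differences of 1.03 and 0.71 (adjusted p 0.488 and 0.562), the latter 0.33 without replicate 1 of the mutant at 47 dpf. The neutrophil receptor gene cxcr2 and the cytokine genes csf3a and cxcl8a were among the 5 that did not pass the filter.

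Of the genes shared by leukocytes, 28 could be tested. At 47 dpf 25 were positive with a median of 0.74, none was called and 12 had an unadjusted p under 0.05, beside 6.92% of all genes. The smallest p-values were those of wasb and lcp1, both regulators of actin, with log2 differences of 1.66 (adjusted p 0.148) and 1.64 (adjusted p 0.201). Without replicate 1 of the mutant at 47 dpf these were 1.1 and 0.99. At 61 dpf 21 were positive with a median of 0.53, and 9 had an unadjusted p under 0.05, beside 25.3% of all genes. 1 was called higher, beside 1.22% of all genes: ikzf1, the gene of a lymphoid and blood progenitor transcription factor, rose by 1.84 ± 0.41 (adjusted p 0.0444). This call likewise ended without each of those 5 libraries, with adjusted p of up to 0.15. Of 27 lymphocyte genes 17 could be tested, none was called at either age, and the medians were 0.25 and 0.33. At an unadjusted p under 0.05 there were 3 at 47 dpf, beside 6.92% of all genes, and 4 at 61 dpf, beside 25.3%. DESeq2 called 4 of the leukocyte genes at each age, and of the lymphocyte genes 0 at 47 and 1 at 61 dpf. Of 25851 genes it called 171 at 47 dpf and 2419 at 61 dpf.

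**Figure D5:**
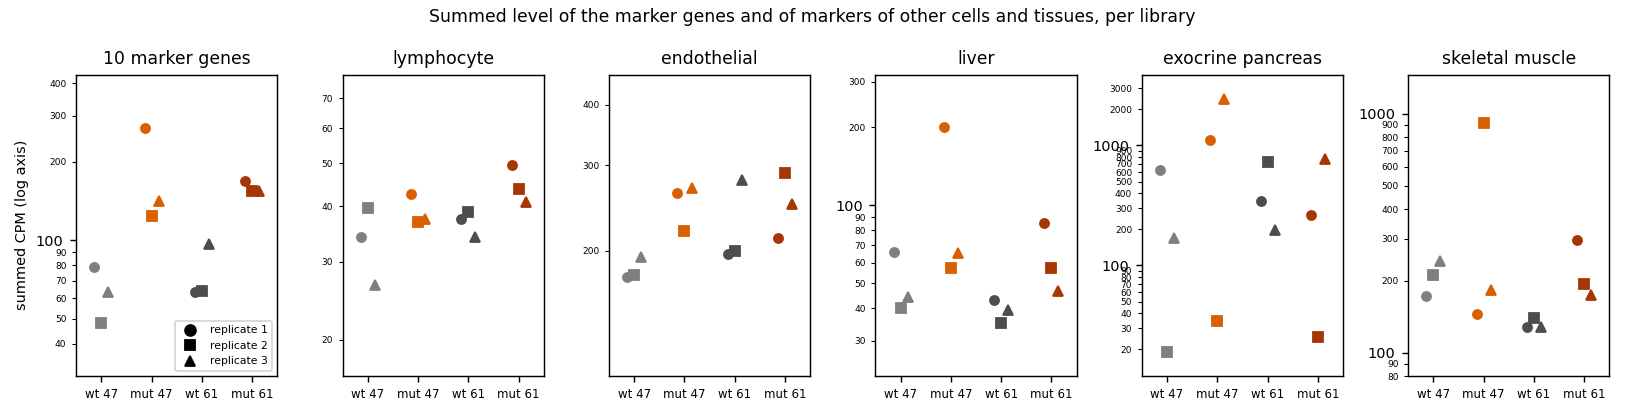
Each marker list in each of the 12 libraries, by genotype and age, as the summed CPM of the list on a log axis: the 10 marker genes and lists of lymphocytes, endothelium, liver, exocrine pancreas and skeletal muscle, with a marker shape for each replicate. Replicate 1 of the mutant at 47 dpf is high for the liver list as well as for the 10 marker genes, and the exocrine pancreas list varies between libraries in every group.

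Markers of other tissues were read in the same libraries. The summed level of 21 liver genes was 40.2 to 66.2 CPM in the wild type and 57.4 to 200 CPM in the mutant at 47 dpf, and 35.0 to 43.1 against 46.8 to 85.1 CPM at 61 dpf, with 0 to 2 of the genes at 0 in a library. The highest value was again in replicate 1 of the mutant at 47 dpf, where fabp10a, a defining gene of hepatocytes named after its values were seen, had 32.0 CPM, beside 7.38 CPM in replicate 1 of the mutant at 61 dpf and at most 1.09 CPM in the other 10 libraries. The summed level of skeletal muscle genes was 173 to 242 against 146 to 914 CPM at 47 dpf and 128 to 140 against 174 to 298 CPM at 61 dpf. That of 27 lymphocyte genes was 26.5 to 39.6 against 36.8 to 42.6 CPM and 34.1 to 38.8 against 40.9 to 49.5 CPM, with 1 to 6 of them at 0 in a library, among them the B cell gene cd79b in 8 of the 12. At 61 dpf the liver, muscle and lymphocyte sums thus did not overlap between the genotypes, as those of the 10 marker genes did not (63.1 to 96.7 against 155 to 169 CPM), and their part in the marker results was not tested. For the liver list the mean log2 CPM did overlap, at -0.71 to 0.23 in the wild type and -0.33 to 1.36 in the mutant. In the sum of the 10, most counts in the mutant libraries at 61 dpf are those of cd74a and cd74b. In replicate 3 of the wild type at that age they had 22.6 and 21.8 of 96.7 CPM, and spi1b had 24.0 CPM. In the muscle sum at 61 dpf most counts are those of ttn.1 and ttn.2, with 41.3 and 212 of 298 CPM in replicate 1 of the mutant. Without replicate 1 of the mutant at 61 dpf, the highest of its group for liver, muscle and lymphocyte genes, the log2 differences were 1.51 for cd74a, 1.47 for cd74b and 1.28 for coro1a. None of the 10 genes was called in that fit. The remaining mutant libraries still had higher liver, muscle and lymphocyte sums than every wild-type library of that age. That fit therefore does not separate the marker genes from these lists.

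For the other lists the summed levels overlapped between the genotypes at 61 dpf. Most of the macrophage sum is acp5a, ctss2.1 and slc37a2. They had 1330, 535 and 219 of 2250 CPM in replicate 1 of the mutant at 61 dpf. The mean log2 CPM of some of these lists did not overlap. The highest wild-type and lowest mutant values were 1.495 and 1.765 for the macrophage list and 1.252 and 1.497 for the neutrophil list. They were 1.824 and 2.096 for shared leukocyte genes, 2.794 and 3.045 for antigen presentation, and 5.737 and 5.801 for the ovary genes. The mean log2 CPM overlapped at 61 dpf for the pancreas, red blood cell and thrombocyte lists. The exocrine pancreas sum was 199 to 726 CPM in wild type against 25.6 to 775 CPM in the mutant there, and 19.2 to 629 against 34.3 to 2430 CPM at 47 dpf. The sum of red blood cell genes was 151 to 190 against 136 to 202 CPM at 61 dpf and 379 to 665 against 271 to 980 CPM at 47 dpf, and that of endothelial genes was 197 to 280 against 212 to 289 CPM at 61 dpf and 176 to 194 against 220 to 270 CPM, without overlap, at 47 dpf. The largest part of the endothelial sum is podxl, with 69.7 to 137 CPM at 61 dpf. The mean log2 CPM of the 26 endothelial genes did not overlap there, at 1.68, 1.67 and 1.85 in the wild type and 1.89, 2.15 and 2.12 in the mutant, and 21 of the 26 genes had a positive log2 difference. Its part in the marker results was not tested. Thrombocyte genes summed to 10.7 to 34.9 against 17.1 to 22.8 CPM at 61 dpf and 11.3 to 22.3 against 16.7 to 28.1 CPM at 47 dpf. No gene of the liver, muscle, pancreas, red blood cell, thrombocyte or endothelial lists was called between genotypes by edgeR at either age. At an unadjusted p under 0.05 there were 10 of 24 muscle and 8 of 21 liver genes at 47 dpf, beside 6.92% of all genes. There were 1 of 17 pancreas, 2 of 19 red blood cell, 1 of 7 thrombocyte and 2 of 26 endothelial genes at that age. At 61 dpf there were 4 of 21 liver, 4 of 24 muscle and 1 of 17 pancreas genes, beside 25.3%. Red blood cell, thrombocyte and endothelial lists had 3 of 19, 2 of 7 and 6 of 26 there. Median log2 differences at 47 dpf were 1.34 for liver, 1.24 for muscle and 2.19 for pancreas, beside 1.19 for the 10 marker genes. Those of red blood cell, thrombocyte and endothelial genes were 0.21, 0.24 and 0.30. At 61 dpf liver, muscle and pancreas had 0.68, 0.69 and -0.24, beside 0.71 for the marker genes. Different mutant libraries at 47 dpf carried these lists. The muscle sum was 914 CPM in replicate 2 and 146 CPM in replicate 1, and the pancreas sum was highest in replicate 3, at 2430 CPM. The sum of the 10 marker genes was highest in replicate 1, at 270 CPM, and lowest in replicate 2, at 124 CPM. In the lists of other tissues DESeq2 called 0 to 1 gene a list at 47 dpf, beside 171 of 25851 genes. At 61 dpf it called 0 to 2 a list, beside 2419 of 25851.

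The members were also compared with one another over the 12 libraries. These values are descriptions, since the libraries share their group and, through tissue composition and scaling, more than that. csf1ra and marco had a Pearson r of log2 CPM of 0.96 (Spearman rho 0.96), and 0.91 after the group means were taken away. cd74a followed coro1a with an r of 0.93 and cd74b with 0.89, and csf1ra followed ptprc with 0.91; without the group means these were 0.68, 0.56 and 0.82. lyz had a negative r with each of the other members, from -0.59 with ptprc to -0.10 with cd74b. Without the group means its r ran from -0.35 with ptprc to 0.20 with marco and cd74b, and was also positive with spi1b and csf1ra. In the RefSeq gene table of assembly GRCz12tu, cd74a and csf1ra lie on the same chromosome with 3 protein-coding genes between them, and no member lies on the chromosome of adamts9.

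Likeness in pattern was measured against 12786 other named genes whose log2 CPM averaged 1 or more. Among them, the 8 whose pattern was most like the mean pattern of the members were laptm5, arpc1b, vsir, lgals3bpb, fcer1gl, wasb, rhogb and txn, with Pearson r from 0.97 down to 0.94 over the 12 libraries. laptm5, the gene of a lysosomal membrane protein of leukocytes, stood first with an r of 0.97 (rho 0.98), 0.97 without replicate 1 of the mutant at 47 dpf, and 0.95 after removal of the group means. Its level was 1.14 ± 0.0788 against 4.18 ± 2.97 CPM at 47 dpf and 2.08 ± 0.7 against 4.87 ± 0.59 CPM at 61 dpf. Its log2 difference was 1.89 ± 0.45 at 47 dpf (adjusted p 0.234) and 1.23 ± 0.43 at 61 dpf (adjusted p 0.113), the former 1.14 without replicate 1 of the mutant. Of the 8 genes, laptm5, vsir, lgals3bpb and wasb were still among the 8 most alike without that library, and laptm5, arpc1b and rhogb after removal of the group means, when the r of all 8 lay between 0.84 and 0.95.

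Closest to cd74a alone were fli1b, prickle2b and lcp1, with r of 0.96, 0.96 and 0.95, and 0.86, 0.67 and 0.78 without the group means. prickle2b was called in the mutant at both ages, with log2 differences of 2.06 ± 0.29 (adjusted p 0.0177) and 2.12 ± 0.29 (adjusted p 0.00849), and in the RefSeq table it lies on the chromosome of adamts9. The call at 47 dpf ended in 4 of the 6 fits without 1 library of that age: wild-type replicates 2 and 3 and mutant replicates 1 and 2, with adjusted p of up to 0.142. Closest to mpeg1.1 were chst7, zeb2a and mafba, with r of 0.96, 0.91 and 0.88. For the neutrophil markers the nearest genes were less alike: spinb, neurod2 and babam1 had r of 0.90, 0.86 and 0.84 with lyz, and usp33, obsl1a and arhgap4a had 0.89, 0.84 and 0.83 with mpx. The Spearman rho of usp33, obsl1a and arhgap4a with mpx was lower, at 0.75, 0.73 and 0.77. For mpx, replicate 1 of the wild type at 61 dpf stood far above the other libraries. None of the 6 genes nearest to lyz and mpx was on the list of neutrophil genes, nor were chst7, zeb2a and mafba on that of macrophage genes. babam1 lies on the chromosome of adamts9 in the RefSeq table. After removal of the group means none of the genes closest to cd74a, mpeg1.1, lyz or mpx was still among the 3 most alike.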

How the data were processed

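Ovary polyA RNA from 12 libraries was made into cDNA with a Tecan Ovation RNAseq kit and into libraries with a Tecan Celero EZ DNA-Seq kit, per the labels' protocols. The submitters' processing notes name kallisto and GRCz11. The deposited table holds the authors' estimated counts per gene, of which 45.4% were not whole at a tolerance of 1e-06. They were rounded, and the unnamed line, which took no more than 0.000113% of any library, was left out. Genes passed edgeR's filterByExpr, libraries were scaled by TMM, and all 12 entered 1 quasi-likelihood fit of 4 groups (edgeR 4.0.16, limma 3.58.1, R 4.3.3). P-values were adjusted over all genes tested by Benjamini-Hochberg, with a threshold of 0.05. Correlations used log2 CPM with a prior count of 2. DESeq2 1.42.0, other scalings, no filter, a replicate block, fits to the libraries compared alone and fits without single libraries were alternatives. The fit was tested on simulated data. Members, gene lists, naming rules and tests were chosen with earlier results of these data known. From each list of leukocyte genes the text names those called, otherwise the 2 with the smallest p, together with copies of members and MHC class II chains; lists of other tissues are given by sums and counts.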

Additional observations from a re-analysis of the deposited data

How the results depend on the processing

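Of 700 recomputed log2 differences of the 10 genes, 636 kept their direction and their side of the threshold, 22 lost and 6 gained a call, and 36 changed sign; the cause was not tested. With DESeq2 the number of members called was 3 in place of 0 at 47 dpf and 2 in place of 0 for wild-type age. At 61 dpf it was 0 in place of 3 in the fit to that age alone and 0 to 3 without single libraries. Same-number correlations of deviations were -0.016 to 0.254 between genotypes, -0.198 to 0.021 in wild-type age and 0.073 to 0.161 in mutant age. In mutant age each was above that with any other number, while elsewhere the same number was not always highest. These values do not settle whether the replicate numbers pair the libraries, and the main fit did not pair them. With the replicate block the number of members called at 61 dpf was 1, cd74b, and spi1b in mutant age was 0.16. Median-of-ratios scaling and the fit without a filter called the same members as TMM scaling with the filter. Upper-quartile scaling moved the median of all genes at 61 dpf from 0.01 to 0.20 and that of the members from 0.71 to 0.91, and turned ptprc in the difference between ages to 0.021 and cd74a in wild-type age to -0.05.

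Signs also turned when single libraries were left out. Between genotypes at 47 dpf the values were -0.17 to 0.13 for lyz, -0.49 to 0.093 for mpx, -0.23 to 0.97 for spi1b and -0.34 to 0.22 for spi1a, and at 61 dpf -0.28 to 0.42 for mpeg1.1 and -1.15 to 0.63 for mpx. For the difference between ages they were -0.57 to 0.093 for cd74a, -0.98 to 0.83 for mpx and -0.43 to 0.36 for ptprc, and for wild-type age -0.16 to 0.27 for cd74a. For mutant age they were -0.51 to 0.15 for cd74a, -0.42 to 0.12 for cd74b, -0.063 to 0.43 for coro1a, -0.69 to 0.36 for mpeg1.1, -0.53 to 0.67 for spi1b, -0.005 to 1.15 for csf1ra and -0.023 to 0.76 for ptprc. An alternative chosen after seeing the data left out replicate 1 of the mutant at 47 dpf and of the wild type at 61 dpf together. It called 1 member at 61 dpf (cd74a) and 1 for wild-type age (csf1ra), and it turned lyz, mpx and spi1b at 47 dpf to 0.02, 0.053 and -0.28, mpx at 61 dpf to 0.63, mpx and ptprc in the difference between ages to 0.58 and 0.34, and cd74a, cd74b, mpeg1.1 and spi1b in mutant age to 0.18, 0.15, 0.38 and 0.70; spi1a at 47 dpf was -0.39 there and -0.001 with median-of-ratios scaling. The counts of all genes called also moved. At 61 dpf the count was 390, beside 20 in the fit to that age alone and 87 with the block. It was 989 with upper-quartile scaling, 2419 with DESeq2 and 27 to 1639 without single libraries. At 47 dpf DESeq2 called 171 genes in place of 19; in the difference between ages 102, and in mutant age 23, both in place of 0. For wild-type age the count was 325, and 115 with the block, 1670 with DESeq2, 26 in the fit to the wild type alone, 16 to 848 without single libraries and 734 without both libraries. Depth limits lyz, whose counts were low in every library, and mpx, whose counts were low in every library except replicate 1 of the wild type at 61 dpf. mpeg1.1 was also low, with 24 to 25.6 counts in the wild-type libraries at 47 dpf.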

Other observations

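Among the other macrophage genes, 1 of 36 was called for age in the wild type, beside 1.52% of all genes, and it was singled out after its values were seen. apoeb, an apolipoprotein E gene of macrophages and microglia that is also active in other tissues, had 1.4, 0.647 and 1.53 CPM in the wild type at 47 dpf and 66.2, 6.09 and 159 CPM at 61 dpf. Its log2 difference was 6.01 ± 1.16 (adjusted p 0.0331, edgeR), and the call ended without any one of the wild-type libraries at 47 dpf or replicate 3 at 61 dpf, with adjusted p of up to 0.131. In the mutant it had 22.5, 1.93 and 5.33 CPM at 47 dpf and 17.2, 16.5 and 8.79 CPM at 61 dpf. The wild-type libraries at 61 dpf in which apoeb was highest, replicates 3 and 1, were also those in which spi1b was highest.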
